A study of Macaca mulatta with 5 samples.

Results

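The spleen was represented by 1 of the 5 RNA-Seq libraries of rhesus macaque (Macaca mulatta), and its transcript levels were set against those of cerebellum, kidney, lung and heart, with 1 library for each tissue. The 5 samples were labelled as male and were made as strand-specific libraries of poly(A)-positive RNA by the deoxy-UTP method. The study sequenced tissues of a single animal to map RNA editing, and cerebellum, kidney, lung and heart were among them, whereas spleen was deposited in the same series, is not reported in the paper, and came from an animal that the labels do not identify. The label of the heart library speaks of RNA from 2 monkey tissues, and ages and treatments were not given. Animal, library and tissue therefore cannot be told apart in any comparison of spleen with another tissue.

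The spleen joins a lymphoid organ to a blood filter. In its white pulp, B cells collect in follicles around follicular dendritic cells, which attract them with chemokines, while T cells gather around the arterioles. In its red pulp, macrophages engulf aged red cells, break down their haem and return the iron to the blood, and the blood passes through wide sinuses whose lining cells carry scavenger receptors.

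Reads were counted on 51763 transcripts, and the RPKM (reads scaled to the exon length and the depth of the library) was used for levels, so that levels of different genes are compared per length. Properly mapped reads were 67110396 in spleen and between 48306898 (kidney) and 81517974 (cerebellum) in the other libraries, and 3 reads on a transcript of 1 kb stood for 0.0447 RPKM in spleen and 0.0368 to 0.0621 RPKM elsewhere. For each of 28633 genes, the transcript with the highest RPKM sum over the 5 libraries was used. Folds are ratios of RPKM + 1, a gene was called at 4-fold or more, and a gene was counted as detected at 1 RPKM or more. Intervals are 95% Wilson intervals of the reads, which cover counting error only, and no test was possible without replicates. RPKM were low throughout the heart library, where the median of the genes detected in all 5 libraries was 4.24 RPKM against 10.6 RPKM in spleen, 10.3 in lung, 8.69 in kidney and 7.44 in cerebellum. RPKM divides by the properly mapped reads. The reads summed over transcripts were 47.9% of these in heart, 71.3% in cerebellum, 80.0% in kidney, 86.2% in spleen and 91.5% in lung. Counts of calls under upper quartile scaling, median-of-ratios scaling and TPM, which does not divide by the mapped reads, are given below. The effect on the ratios to heart and to cerebellum, each taken alone, was not tested.

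In spleen 12510 genes were detected, of which 546 were detected in no other library, and 121 genes were detected in the other 4 but not in spleen. Lung was the nearest tissue. Across the 28633 genes, log2(RPKM + 1) in spleen gave a Pearson coefficient of 0.90 with lung, 0.80 with kidney, 0.77 with heart and 0.74 with cerebellum, as a description over genes that are not independent. The genes detected in spleen and lung and in no other tissue numbered 678, against 121 for spleen and cerebellum, 103 for spleen and kidney and 19 for spleen and heart.

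At least 4-fold more RNA in spleen than in every other tissue was found for 281 genes, or 0.981% of the 28633 genes and 1.79% of the 15688 genes detected in any library. Of these 281 genes, 201 had a gene symbol. Lung held the next-highest level for 220 of them, kidney for 26, cerebellum for 22 and heart for 13, and without the lung library the count was 863. With all libraries kept, the count was 222 under upper quartile scaling and 203 under median-of-ratios scaling. Together they took 6.27% of the reads counted in spleen and between 0.11% and 0.72% in the other tissues. Their median level in spleen was 24.6 RPKM, and 86 of them were under 1 RPKM in all 4 other tissues. These levels entered the rule that chose the genes, so a larger share of reads in spleen was fixed in advance. In bulk tissue, a difference in the number of cells of a type cannot be told apart from a difference in the RNA per cell.

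The threshold cut through a continuous range. ITGA4, an integrin chain of white blood cells, lay just inside it at 4.02-fold over lung (24.0 against 5.23 RPKM), and CDCA3 lay just outside at 3.99-fold (4.29 against 0.327 RPKM).

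**Figure D1:**
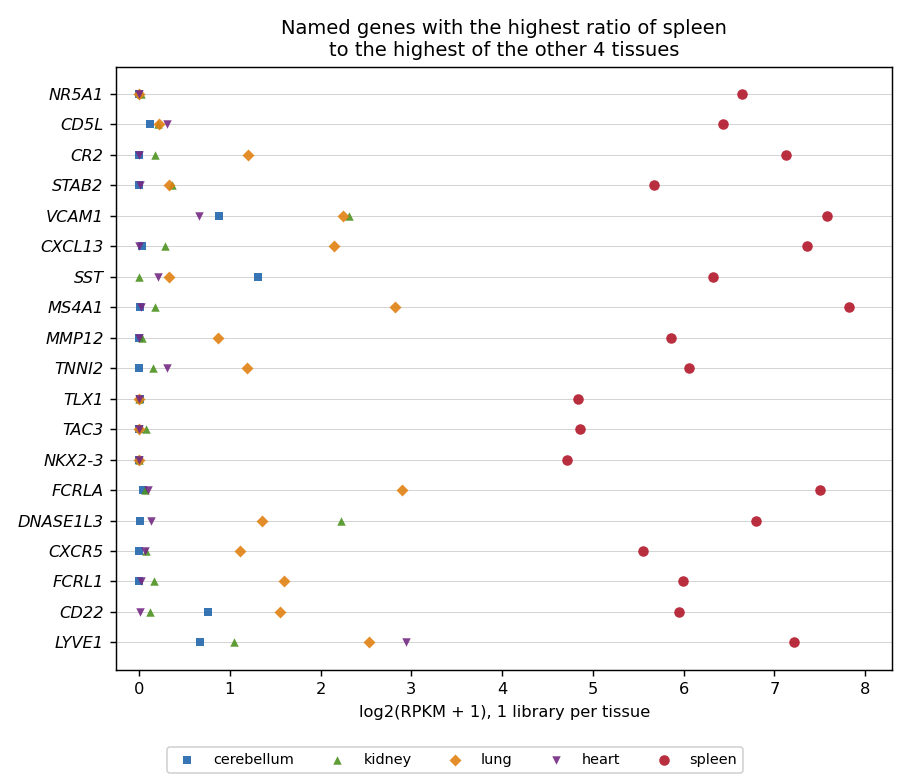
Levels of 19 of the 20 named genes with the highest ratio of spleen to the highest of the other tissues, as log2(RPKM + 1) on the x axis, with 1 point per library. Each gene is highest in spleen, from NR5A1 (6.62 above the highest other tissue on the log2 scale) to LYVE1 (4.26 above).

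The highest ratio to every other tissue belonged to NR5A1, a nuclear receptor (steroidogenic factor 1) known for its part in adrenal and gonad formation and in the vascular bed of the spleen. NR5A1 (ENSMMUG00000014111, chr15:11247551-11273964 of rheMac2) had 20438 reads in spleen, or 98.8 RPKM (interval 97.4 to 100.1), against 2 reads in kidney and none in cerebellum, lung or heart. The spleen stood alone for this gene, at 98.5-fold over kidney on the RPKM + 1 scale. TLX1, a homeobox factor without which no spleen forms in mice, lies on chr9:100744294-100750859 and reached 27.6 RPKM in spleen, with 2 reads in cerebellum and none in kidney, lung or heart. NKX2-3, a homeobox factor of splenic and gut vessels, lies on chr9:99142378-99145961 and reached 25.3 RPKM in spleen from 3542 reads. No read of NKX2-3 was counted in the other 4 libraries. In the shallowest of them 3 reads would have given 0.0298 RPKM, and the RPKM of NKX2-3 in spleen was 850-fold that floor. These 3 genes were the called members among 8 matched genes in the list of spleen-forming and stromal transcription factors, for which 12 symbols were listed.

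The other members of that list were not called higher than in every tissue. WT1, a zinc-finger factor of the mesothelium and of kidney podocytes, was at 8.75 RPKM in spleen, 6.37 in kidney, 0.197 in lung, with 0.220 in heart and 0.00853 in cerebellum. It thus passed the threshold against lung (8.15-fold) but lay near kidney. NFIX was highest in cerebellum (39.3 RPKM against 7.64 in spleen), HOXA9 was highest in kidney (16.2 against 0.206), and BARX1 was under 1 RPKM everywhere. The median of the list's 8 log2 ratios to the highest other tissue was 0.27, beside -0.41 for the 15688 detected genes.

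B cell genes formed the most complete group. Of 20 symbols listed, 14 matched a gene, and each of the 14 was called higher in spleen than in every other tissue, with a median log2 ratio of 4.07. The count was 13 under upper quartile and under median-of-ratios scaling, where BLNK fell short of the threshold, and 12 with 3 RPKM added, where BTK did so too. Summed over the 14 genes, the level was 1189 RPKM in spleen, 73.4 in lung, 8.18 in kidney, with 5.39 in cerebellum and 1.81 in heart. MS4A1, which encodes the B cell surface protein CD20 (chr14:13595524-13610510), was at 225 RPKM in spleen (interval 223 to 228), 6.05 in lung, 0.132 in kidney, with 0.0126 in heart and 0.00979 in cerebellum. That was 32.1-fold over lung, the next tissue. CR2, the complement receptor CD21 of B cells and follicular dendritic cells (chr1:162868208-162906986), had 138 RPKM in spleen (interval 137 to 140), 1.30 in lung, 0.132 in kidney and no reads in cerebellum or heart, a ratio of 60.7-fold to lung.

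Factors, kinases and adaptors of the B lineage were likewise highest in spleen. PAX5, the factor that fixes B cell identity, was at 28.4 RPKM in spleen and 0.629 in lung, or 18.1-fold higher. BLK, a kinase downstream of the B cell receptor, was at 16.3 RPKM in spleen and 0.763 in lung, with no reads in the other 3 tissues. The smallest ratios within the list were those of CD37 (261 RPKM against 41.9 in lung, 6.10-fold), BTK (23.6 against 4.28 in lung, 4.66-fold) and BLNK (24.8 against 4.58 in kidney, 4.63-fold), genes that myeloid or other cells also use. FCRLA and FCRL1, Fc receptor-like genes of B cells, had 180 and 62.5 RPKM in spleen against 6.46 and 2.02 in lung. FCRL genes are related to each other, and whether reads were shared among them was not tested.

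Genes of the germinal centre, the site where B cells mutate their antibody genes, were partly called. Of 11 matched genes of 12 listed, 10 were highest in spleen and 4 were called, among them GCSAM, STAP1 and ELL3. GCSAM, a signalling adaptor of germinal centre B cells, was at 19.1 RPKM in spleen and 0.821 in lung. BCL6, the master repressor of the germinal centre that many tissues also express, was at 21.9 RPKM in spleen, between 26.6 in lung and 11.7 in kidney, and was highest in cerebellum at 27.5. Of the plasma cell list, 5 of 12 symbols matched and only IRF4 was called higher (9.50 RPKM against 1.17 in lung, not with 3 RPKM added). Another 1 of the 5 was called lower than in lung (-3.31 on the log2 scale), and the list's median log2 ratio to the highest other tissue was -0.36. XBP1, which drives secretion, was at 51.7 RPKM in spleen and 66.4 in lung.

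T cell genes were higher in spleen but lung held part of them too. Of 22 symbols, 16 matched, 14 were highest in spleen, and 3 were called: CD3E, CD3G and CD4, of which CD3E alone remained with 3 RPKM added. CD3E, a chain of the T cell receptor complex, was at 55.4 RPKM in spleen, 7.66 in lung, 0.852 in kidney, with 0.175 in cerebellum and 0.0250 in heart. CD4, the coreceptor of helper T cells that macrophages also carry, was at 71.2 RPKM in spleen and 15.7 in lung, 4.34-fold apart. CD8A, the coreceptor of cytotoxic T cells, was at 19.9 RPKM in spleen and 7.98 in lung, 2.33-fold apart. The exceptions were IL7R, the receptor for interleukin-7, with 31.3 RPKM in spleen and 85.3 in lung, and FOXP3, the factor of regulatory T cells, with 2.39 in spleen and 4.82 in kidney. The list's median log2 ratio was 1.45, and 13 of its members were called once lung was left out.

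Cytotoxic genes were closer to lung than T cell genes as a list. Of 20 symbols, 10 matched, with a median log2 ratio of 0.67, and GZMK was the member called (36.6 RPKM in spleen, 7.79 in lung), though not with 3 RPKM added. NKG7, a granule protein of natural killer and cytotoxic T cells, was at 15.03 RPKM in spleen and 13.8 in lung, and GZMB, a granule protease, was at 38.0 in spleen and 49.1 in lung.

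The chemokines that place lymphocytes in the white pulp, and their receptors, were among the highest ratios. Of 23 symbols, 17 matched, 14 were highest in spleen and 9 were called, with a median log2 ratio of 2.52. CXCL13, which draws B cells into follicles (chr5:51960288-51967512), was at 163 RPKM in spleen (interval 160 to 166), 3.44 in lung, 0.216 in kidney, 0.0213 in cerebellum and without reads in heart. Its receptor CXCR5 was at 46.0 RPKM in spleen and 1.17 in lung, and at no more than 0.0588 in the other tissues. On the T zone side, the ligand CCL19 was at 40.1 RPKM in spleen and 5.38 in lung, and its receptor CCR7 was at 35.05 and 4.86. Ligand and receptor were thus each above every other tissue in both pairs, at 37.0-fold and 21.7-fold over lung for the B cell pair and 6.44-fold and 6.15-fold for the T zone pair.

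Lymphotoxin, which lymphocytes use to maintain the follicular stroma, followed the same direction for its ligands and not for its receptor. LTB was at 92.3 RPKM in spleen and 4.95 in lung (15.7-fold), and LTA at 9.02 and 0.399 (7.16-fold). LTBR, the receptor on stromal and myeloid cells, was at 13.3 RPKM in spleen and 24.9 in kidney, and was 1.82-fold lower in spleen than in lung. CXCL12, a stromal chemokine that retains blood-forming and plasma cells, was at 286 RPKM in spleen, 49.1 in kidney, 29.4 in lung, with 11.7 in heart and 1.01 in cerebellum. CCL25, a chemokine of thymus and gut, was at 0.960 RPKM in spleen and 5.89 in cerebellum.

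**Figure D2:**
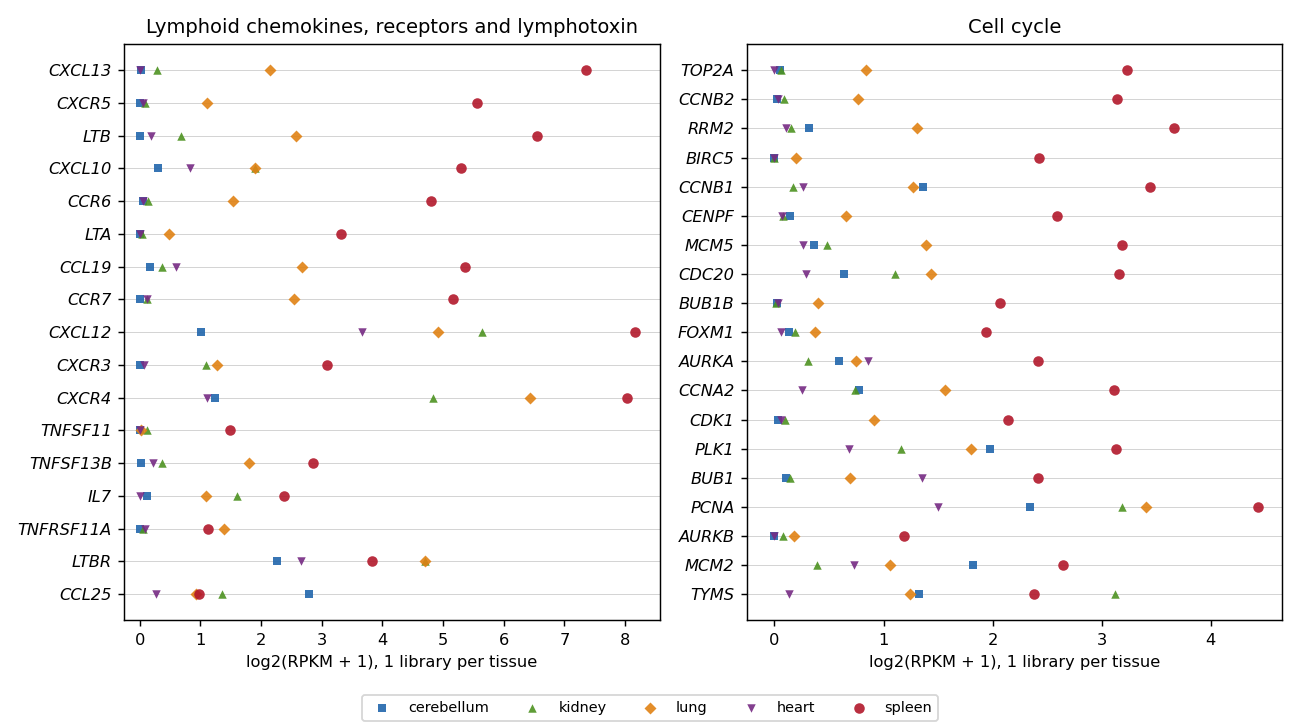
Levels of the 17 matched genes of the chemokine and lymphotoxin list and the 19 of the cell cycle list, as log2(RPKM + 1) on the x axis, with 1 point per library. Spleen holds the highest point for 14 of the 17 chemokine genes and for 18 of the 19 cell cycle genes (BUB1 not under median-of-ratios scaling), with TYMS highest in kidney.

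Macrophage genes divided into those well above lung and those shared with it. Of 20 symbols, 15 matched, 13 were highest in spleen and 5 were called (CD5L, VCAM1, C1QC, SIGLEC1 and CSF1R). CD5L, a secreted scavenger-receptor protein of tissue macrophages (chr1:136408423-136416947), was at 85.4 RPKM in spleen (interval 83.5 to 87.3), 0.234 in heart, 0.162 in lung, with 0.154 in kidney and 0.0911 in cerebellum, so that its level in spleen was 70.0-fold over heart. VCAM1, the adhesion molecule of red pulp macrophages and of activated endothelium (chr1:103779122-103798292), was at 191 RPKM in spleen, 3.98 in kidney, 3.75 in lung, with 0.841 in cerebellum and 0.581 in heart. C1QC, a chain of the first complement component that macrophages make, was at 1401 RPKM in spleen and 129 in lung, and was among the 10 most abundant named genes of the spleen library. SIGLEC1, the sialic acid receptor of marginal macrophages, was at 29.6 RPKM in spleen and 2.99 in lung.

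Some other members of the macrophage list were nearer to lung or higher there. CD163, the receptor that takes up haemoglobin, was at 27.5 RPKM in spleen and 19.2 in lung, and CD68 was at 97.1 and 47.5. CD14, a coreceptor for bacterial lipopolysaccharide on monocytes, was higher in lung (62.7 RPKM) than in spleen (29.4). MARCO was also higher in lung (10.6 against 2.98), although its symbol lies on another chromosome in the RefSeq annotation and the match is doubtful.

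In the iron recycling list, 2 of 12 matched genes were called, HMOX1 and SLC40A1, and the ferritin genes for iron storage were not. HMOX1, heme oxygenase, which opens the haem ring and frees the iron (chr10:79294795-79305860), was at 283 RPKM in spleen (interval 280 to 286), 66.6 in kidney, 7.82 in lung, with 1.14 in cerebellum and 0.746 in heart. Its ratio was 32.2-fold to lung and 4.20-fold to kidney, and the latter dropped below the threshold under upper quartile scaling, median-of-ratios scaling (1.67 on the log2 scale) and in TPM (1.93). SLC40A1, ferroportin, the iron exporter, was at 232 RPKM in spleen, 29.3 in lung, 20.1 in kidney, with 10.5 in heart and 0.910 in cerebellum, which was 7.68-fold over lung. FTL, the ferritin light chain, was at 1518 RPKM in spleen, 1878 in kidney and 1124 in lung, and FTH1, the heavy chain, at 305, 373 and 359. The biliverdin reductases, which act on the product of heme oxygenase, were also within 2-fold of the highest other tissue: BLVRA was at 8.28 RPKM in spleen and 7.68 in lung, and BLVRB at 23.6 in spleen and 43.6 in kidney. Of the 12 genes, matched from 15 symbols, 10 were detected, and the median log2 ratio was -0.37, close to the -0.41 of the detected genes. SLC11A1, an iron transporter of the phagosome, was higher in lung (24.9 RPKM) than in spleen (9.07).

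The endothelial list split in opposite directions. STAB2, LYVE1 and STAB1, listed with the genes of splenic sinus endothelium, were called higher in spleen than in every other tissue. By contrast, 4 general endothelial genes were called lower than in lung, or 30.8% of the matched genes beside 4.54% of the detected genes. Bulk tissue does not show which cells carried these RNAs. Of 17 symbols 13 matched, 5 were highest in spleen and 3 were called higher than in every tissue, with a median log2 ratio of -0.14. STAB2, an endocytic receptor for hyaluronan on sinus lining cells (chr11:104712759-104881613), was at 50.01 RPKM in spleen (interval 49.4 to 50.6), 0.289 in kidney, 0.258 in lung, 0.00787 in heart and without reads in cerebellum. LYVE1, another hyaluronan receptor, known from lymphatic and sinusoidal endothelium, was at 147 RPKM in spleen, 6.71 in heart, 4.81 in lung, with 1.07 in kidney and 0.595 in cerebellum. STAB1 was at 57.1 RPKM in spleen and 8.33 in lung. These 3 genes were 39.6-fold, 19.2-fold and 6.22-fold over the highest other tissue.

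Against them, VWF, the clotting protein stored in endothelial cells and platelets, was at 3.55 RPKM in spleen and 51.6 in lung, or 11.6-fold lower. CDH5, the cadherin of endothelial junctions, was at 6.97 RPKM in spleen and 43.0 in lung, 5.52-fold lower. NOSTRIN (5.09 against 40.4 RPKM) and SELP (0.270 against 5.79) were the other members called lower than in lung. PECAM1 was at 53.0 RPKM in spleen and 161 in lung. TEK, the receptor for angiopoietins, did not separate spleen from lung, with 30.01 RPKM in spleen and 30.1 in lung. The other 3 tissues lay below lung for each of VWF, CDH5, NOSTRIN, SELP and PECAM1.

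**Figure D3:**
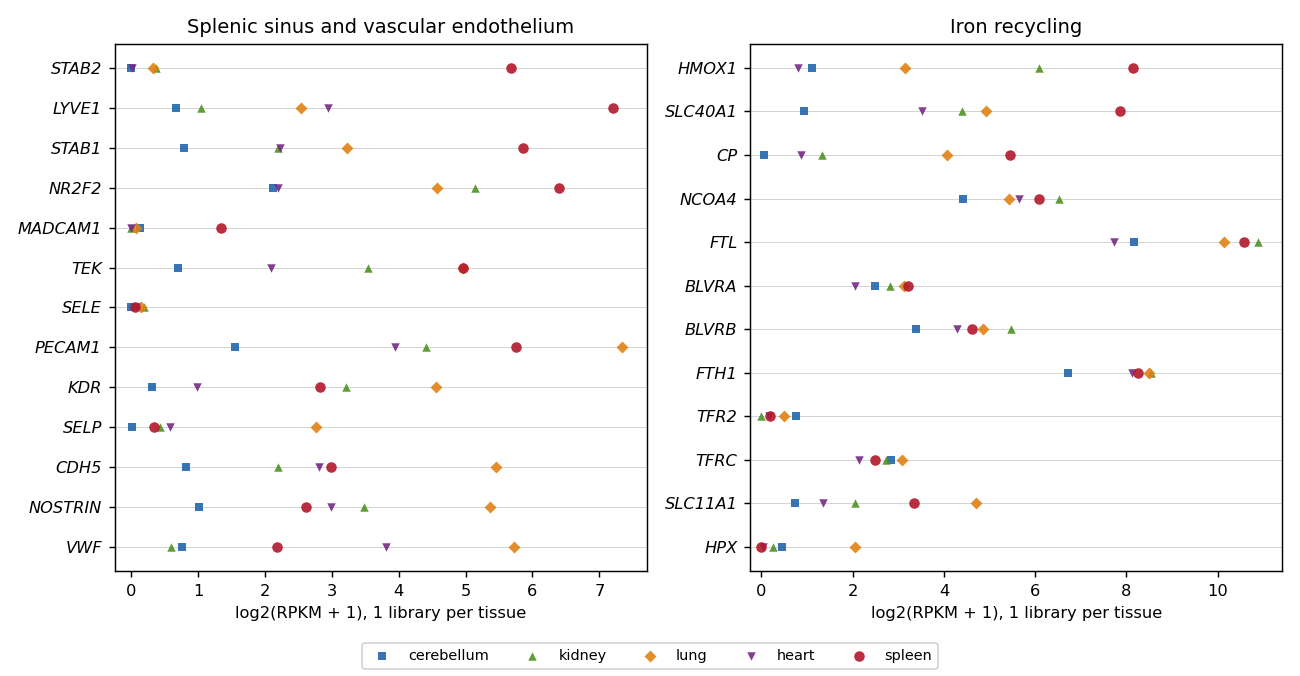
Levels of the 13 matched endothelial genes and the 12 matched genes of the iron list, ordered by the ratio of spleen to lung, as log2(RPKM + 1) on the x axis, with 1 point per library. STAB2, LYVE1 and STAB1 lie far to the right in spleen while VWF, NOSTRIN and CDH5 are highest in lung, and HMOX1 and SLC40A1 separate from FTL and FTH1, which lie close together in spleen, kidney and lung.

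Cell cycle genes were low in absolute level and higher in spleen. Of 20 symbols, 19 matched, all 19 were detected, 18 were highest in spleen (BUB1 not under median-of-ratios scaling) and 5 were called, with a median log2 ratio of 1.57. TOP2A, the topoisomerase of dividing cells, was at 8.41 RPKM in spleen, 0.790 in lung, 0.0437 in kidney, 0.0353 in cerebellum and without reads in heart. BIRC5, which acts in chromosome segregation, was at 4.38 RPKM in spleen and 0.150 in lung, with no reads in the other tissues. Since these levels lie near the added 1, the count of called genes rose to 12 with 0.1 RPKM added and was 0 with 3 RPKM added, and it was 8 in TPM and 3 under upper quartile or median-of-ratios scaling, where CCNB1 and BIRC5 fell short. TYMS, thymidylate synthase, was higher in kidney (7.70 RPKM) than in spleen (4.19).

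Antigen presentation was high in spleen and shared with lung. CD74, the chaperone of MHC class II, had the highest level of any named gene in spleen, at 1857 RPKM, with 571 in lung, 145 in heart, with 99.3 in kidney and 15.1 in cerebellum. Of the 10 matched genes of the class II list, CIITA, MAMU-DMB and MAMU-DOA were called, and MAMU-DMB alone under median-of-ratios scaling. CIITA, the factor that switches class II genes on, was at 29.7 RPKM in spleen and 6.36 in lung, and MAMU-DMB, which loads peptides, was at 131 and 28.5. LGMN, a lysosomal protease, was the exception, with 473 RPKM in kidney and 66.4 in spleen. Reads of MHC genes may be shared among near-copies. In the class I list, 11 of 12 matched genes were highest in spleen, but TAPBPL alone was called (39.1 RPKM against 8.28 in lung; not with 3 RPKM added), and PSMB8, a subunit of the immunoproteasome, was at 49.3 in spleen and 21.2 in lung.

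Dendritic cell genes gave 3 calls among 11 matched genes. ITGAX, the integrin CD11c, was at 24.6 RPKM in spleen and 1.94 in lung, IRF8 was at 56.3 and 6.53, and CLEC9A, a receptor for dead cells on cross-presenting dendritic cells, was at 8.27 and 0.955. LAMP3, which alveolar type II cells also express, went the other way with 5.40 RPKM in spleen and 153 in lung. Among lymphoid and myeloid transcription factors, 5 of 23 matched genes were called (IKZF1, IKZF3, POU2F2, TCF7 and BCL11A). POU2F2 fell short of the threshold under upper quartile scaling, and POU2F2 and BCL11A did under median-of-ratios scaling, which left 4 and 3 called. Called lower than in lung were 2 members, among them the doubtful symbol GATA2 (3.93 RPKM against 40.8). IKZF1, the lymphoid factor Ikaros, was at 49.4 RPKM in spleen, 9.07 in lung and no more than 0.444 elsewhere.

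Interferon-stimulated genes were at like levels in spleen and lung. None of the 17 matched members was called higher or lower than in lung or in every tissue, and the median log2 ratio to lung was 0.33. Calls were also rare over the detected genes, at 2.36% higher than in lung, 4.54% lower and 1.79% above every tissue. The absence of calls among 17 genes is therefore near that share. At a threshold of 2-fold, 2 members were higher than in every tissue. MX1, an antiviral GTPase, was at 22.5 RPKM in spleen and 18.0 in lung, and IFI27 was at 238 and 251. In the complement list, CFP (properdin, 67.2 RPKM against 10.7 in lung) and CR1 (9.39 against 0.482) were called among 16 matched genes, while C3 (23.3 RPKM against 125) and C5 (0.10 against 10.01) were called lower than in lung.

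The deaminases that edit RNA or DNA were mixed. Of 16 symbols, 9 matched, 5 were detected in spleen and 4 were highest there. Called higher than in every tissue was 1 member, or 11.1% beside 1.79% of the detected genes. That call was lost under upper quartile and median-of-ratios scaling and with 3 RPKM added. ADAR, the A-to-I RNA-editing enzyme, was at 43.9 RPKM in spleen, 31.8 in lung, 19.8 in kidney, with 16.9 in cerebellum and 5.69 in heart, so that spleen was 1.37-fold over lung and not called. ADARB1, its paralog, was at 2.66 RPKM in spleen, well below cerebellum (21.4) and lung (13.2) and above kidney (1.71) and heart (0.608). APOBEC3H, an antiviral cytidine deaminase, was at 12.8 RPKM in spleen and 4.41 in lung.

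The red cell, granulocyte and platelet lists gave at most 1 called member each. These were 0%, 6.67% and 8.33% of the matched members, beside 1.79% of the detected genes. In lists this short, 0 or 1 call is not set apart from that share. Of 11 matched red cell genes, only HBA was detected, at 52.1 RPKM in spleen, 48.2 in lung, 18.3 in heart, with 2.68 in cerebellum and 0.719 in kidney, and HBA reads may be shared among near-copies. S100A9, a neutrophil and monocyte protein, was at 162 RPKM in spleen and 551 in lung, and MMP9 was the member called among 15 matched granulocyte genes (30.2 RPKM against 6.52), a call that was lost under upper quartile and median-of-ratios scaling. RGS18 was the member called among 12 matched platelet genes (15.5 against 2.67), and with 3 RPKM added neither RGS18 nor MMP9 was called. ITGA2B, the platelet integrin chain, was at 0.570 in spleen and 2.12 in cerebellum.

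Contractile genes were present in spleen and higher elsewhere. Of 12 smooth muscle genes, 11 were detected, none was highest in spleen and 4 were called lower than in lung (ACTG2, CNN1, MYH11 and LMOD1). Those 4 were 33.3% of the list, beside 4.54% of the detected genes. ACTA2, smooth muscle actin, was at 59.4 RPKM in spleen, 153 in lung, 53.5 in kidney, with 25.4 in heart and 4.13 in cerebellum. DES, desmin, was at 32.3 RPKM in spleen and 1037 in heart. Of 12 matched matrix genes none was called higher in spleen and 2 were called lower than in lung, FN1 (7.57 RPKM against 74.3) and PDPN (0.0499 against 11.8). Those 2 were 16.7% of the matched genes, and the absence of higher calls is near the 1.79% of the detected genes. LUM, a collagen-binding proteoglycan, was at 105 RPKM in spleen and 55.1 in lung.

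**Figure D4:**
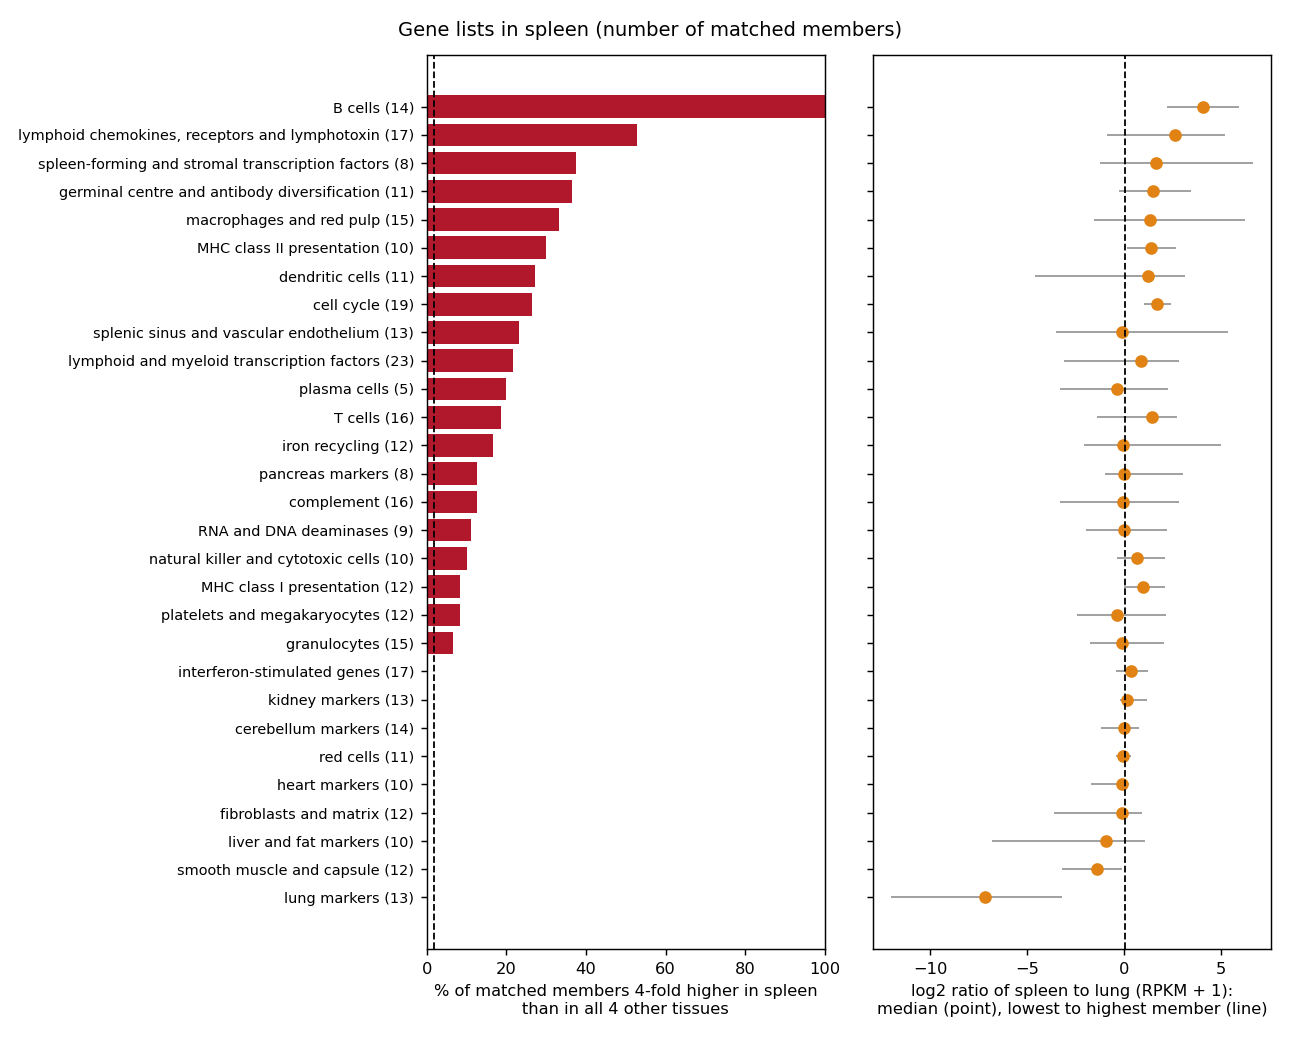
For each of 29 gene lists, the left panel shows the percentage of matched members at least 4-fold higher in spleen than in all 4 other tissues and the right panel shows the median log2 ratio of spleen to lung (point) with the lowest and highest member (line). Dashed lines mark the genes detected in any library (1.79% and 0.07), and the B cell list stands at 14 of 14 members whereas the lung markers have a median of -7.18.

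The markers of the other tissues were nearly absent from spleen. Summed over 13 matched lung markers, the level was 5.86 RPKM in spleen and 9155 in lung, and 7 of the 13 had no reads in spleen. Most of the sum in spleen was AGER, at 3.97 RPKM against 719 in lung. The sums were 4.52 RPKM in spleen against 3034 in kidney for 13 kidney markers, 8.98 against 3884 in cerebellum for 14 cerebellum markers, and 1.04 against 17332 in heart for 10 heart markers. Of 8 matched pancreas genes, CPA1, a digestive carboxypeptidase, was called, with 15.97 RPKM in spleen, 1.08 in lung, 0.0738 in cerebellum and no reads in kidney or heart. The other pancreas genes were at or under 1.14 RPKM in spleen, with INS, CTRB2 and CELA3B at 0 reads. Of 10 matched liver and fat genes, 5 had no reads in spleen and SERPINA1, a protease inhibitor that white blood cells also make, held most of their summed 52.1 RPKM at 47.6, against 123 in lung.

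Several genes with the highest ratios are better known from other organs. SST, the hormone somatostatin (chr2:180010080-180011536), had 79.3 RPKM in spleen (interval 76.6 to 82.1), 1.47 in cerebellum, 0.257 in lung, 0.158 in heart and no reads in kidney. TAC3, the precursor of neurokinin B, had 28.0 RPKM in spleen, 2 reads in kidney and none in the other libraries. Of 11 matched neuroendocrine genes, in a list added after the values were seen, SYP was the single member detected in spleen, at 1.29 RPKM, and CHGA was at 0.0984. TNNI2, the inhibitory troponin of fast skeletal muscle, was at 65.8 RPKM in spleen, 1.29 in lung, 0.241 in heart, 0.115 in kidney and without reads in cerebellum, whereas none of 6 matched skeletal muscle genes in another added list was detected in spleen.

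The last added list covered adrenal and steroid enzymes, which NR5A1 is known to drive. Of 9 matched genes, STAR, which moves cholesterol into mitochondria, was at 5.12 RPKM in spleen and 0.585 in cerebellum, and CYP21A2 was at 5.43 in spleen and 0.157 in kidney. CYP11B1 and CYP11B2, enzymes of the adrenal cortex, had no reads in any library, CYP11A1 was at 0.0308 RPKM in spleen, and CYP17A1 was at 0.133. Thus 2 of the 9 genes were detected in spleen, where 12510 of all 28633 genes were. CYP21A2 was called higher than in every other tissue (11.1% of the 9), a call lost with 3 RPKM added. Called higher than in lung were 2 of the 9 (22.2%). The shares over the detected genes were 1.79% and 2.36%.

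MMP12, the macrophage elastase, and DNASE1L3, a secreted nuclease of macrophages and dendritic cells that digests DNA in the blood, were also among the 20 highest ratios, as was CD22, an inhibitory receptor of B cells. MMP12 was at 56.9 RPKM in spleen, 0.823 in lung, 0.0231 in kidney and without reads in cerebellum or heart. DNASE1L3 was at 110 RPKM in spleen, 3.69 in kidney, 1.56 in lung, with 0.0958 in heart and 0.00930 in cerebellum. CD22 was at 60.8 RPKM in spleen, 1.94 in lung and 0.691 in cerebellum.

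Genes lower in spleen than in every other tissue were few, at 8 of the 28633 (0.0279%), or 0.051% of the detected genes. BNIP3, a mitochondrial protein induced by low oxygen (chr9:131635174-131650420), was at 4.11 RPKM in spleen (interval 3.74 to 4.51), 34.4 in lung, 44.7 in cerebellum, with 51.6 in heart and 60.2 in kidney. It was 6.92-fold lower than in lung, the lowest of the others. RNASE1, a ribonuclease secreted by endothelium, was at 3.90 RPKM in spleen, 30.7 in kidney, 76.4 in cerebellum, with 169 in heart and 1273 in lung. MYH14, a non-muscle myosin, was at 0.341 RPKM in spleen and 7.16 to 25.2 in the others. GAS6, a ligand of the TAM receptors by which macrophages engulf dead cells, was at 3.34 RPKM in spleen and 19.6 to 28.6 elsewhere, 4.76-fold lower than in cerebellum. The receptors AXL and MERTK were at 37.0 and 9.83 RPKM in spleen, each the highest of the 5 libraries.

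The other named genes lower than in every tissue were TACC2, PPP1R1A and ATP1B1, a subunit of the sodium pump, which was at 6.40 RPKM in spleen and between 30.8 in lung and 591 in kidney. PPP1R1A, an inhibitor of protein phosphatase 1, rested on 9 reads in spleen (0.227 RPKM, interval 0.120 to 0.432) and was at 4.16 in lung. TMEM88, TMEFF1 and MTUS1, the next by ratio, lay short of the threshold at 3.81-fold, 3.78-fold and 3.57-fold lower.

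Against lung alone, 370 genes were called higher in spleen (1.29% of all genes and 2.36% of the detected genes) and 712 lower (2.49% and 4.54%). The 370 included the 281 above every tissue and 89 others. The lower side was led by genes of the airway and alveolus. SFTPC and SFTPB, surfactant proteins, were at 4095 and 2805 RPKM in lung and had no reads in spleen. SCGB1A1, the secretory protein of club cells, was at 333 RPKM in lung and without reads in spleen, and SLC34A2, a phosphate transporter of type II cells, was at 310 in lung and 0.0615 in spleen. CHIT1, a chitinase of activated macrophages, was at 305 RPKM in lung, 0.476 in spleen and at most 0.127 in the other tissues.

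**Figure D5:**
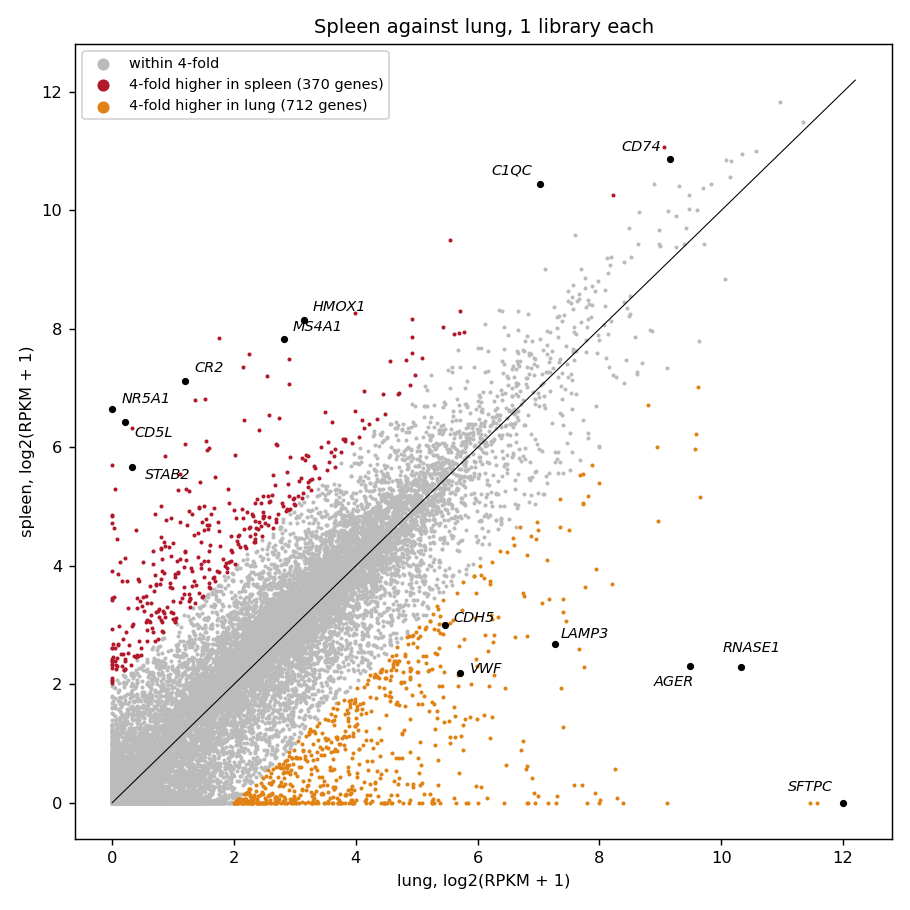
Each point is a gene, with log2(RPKM + 1) in lung on the x axis and in spleen on the y axis. The 370 genes at least 4-fold higher in spleen lie above the line of equal level with NR5A1, CR2 and HMOX1, and the 712 genes at least 4-fold higher in lung lie below it with SFTPC at the far right.

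Features that did not enter the rule are given for the genes above every other tissue as a description, with no test. Their median exon length was 1755 bases, between the 2043 of genes detected in spleen and the 1110 of all genes, and 51.2% had more than 1 annotated transcript, against 46.7% and 28.9%. Some of them lay close together, and how often other genes do so was not computed. The windows named here were picked from 7 that held 3 or more of them. Of the 12510 genes detected in spleen, 281 were above every other tissue. The window at chr1:139000001-140000000 held 5 among 25 genes detected in spleen, including SLAMF6, CD84 and CD48, receptors of the SLAM family. The window at chr1:136000001-137000000 held 4 among 11, namely CD5L, FCRL1, FCRL2 and FCRL5. A window on chromosome 4 (31000001 to 32000000) held 5 among 51, including LTA, LTB and CYP21A2. The called genes without a symbol numbered 80, and ENSMMUG00000020755, next to C1QC on chromosome 1 (25226755 to 25229748), was at 727 RPKM in spleen and 45.6 in lung.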

How the data were processed

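The authors deposited, for each of 51763 transcripts in each library, a whole-number read count and an RPKM value, which divides the count by exon length and by the total of properly mapped reads stated in each file. The deposited counts were not normalized, and the deposited RPKM could be recomputed from them in every row. Per the paper, reads were aligned with BWA to rheMac2, and the submitters' processing notes name TopHat 1.2.0 without its role. The alignment of the spleen reads and the counting tool are not given in the sources used here. The transcript identifier served to join the libraries. Starts are given 1-based. For 7 transcripts the exon lengths differed among files, and each library kept its own. Transcripts of a gene can carry the same reads.

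Symbols came from a table of gene identifiers and matched 15556 of 28633 genes. Of 13307 symbols that could be compared with the chromosome in RefSeq, 13160 agreed. Of 535 listed symbols 391 matched, with 4 of them through an older or newer symbol. The symbols CXCR4, MARCO, GP9, TUBB1, GATA2, PLK1, MCM2 and FABP4 lay on another chromosome in RefSeq and are doubtful. The members and the 29 gene lists were chosen with earlier results of these data known, and 3 lists were added after the values were seen. Named were the matched list members, the 20 genes with a symbol and the highest ratio to every other tissue (at least 50 reads in spleen), the 10 lowest, the 10 at each end against lung and the 10 most abundant in spleen. ITGA4, CDCA3, SLAMF6, CD84, CD48, FCRL2, FCRL5 and ENSMMUG00000020755 fall outside this rule and were chosen after their values were seen.

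Ratios used a pseudocount of 1 RPKM and a threshold of 4-fold. With 1 library per tissue no test was made. Counting error was given as the 95% Wilson interval, with 3 reads as the floor. Alternatives were other pseudocounts and thresholds, a read filter, upper quartile and median-of-ratios scaling, TPM, other rows for a gene, and each other tissue left out. The 8057 transcripts without a gene identifier were kept apart. Some items are not reported here. No sequences were used here. Analyses ran in Python 3.11.15 using pandas 2.3.3, numpy 2.4.6 and scipy 1.17.1, and plots were drawn with matplotlib 3.10.9.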

Additional observations from a re-analysis of the deposited data

Results flagged for a closer look

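Transcripts without a gene identifier lay outside the comparison of genes. Of 8057 such transcripts, 1871 were detected in spleen, and 59 (0.732%) were at least 4-fold higher in spleen than in all 4 other tissues, a share below the 0.981% of genes. They are given because they entered no comparison above. The highest, IMMRNTR109 (chr7:75358259-75370182), was at 40.4 RPKM in spleen from 5417 reads, 0.953 in kidney, 0.174 in heart, 0.0859 in cerebellum and 0.0129 in lung. IMMRNTR1576 (chr8:63497360-63502939) was at 28.6 RPKM in spleen, 0.701 in lung and no more than 0.106 in the other tissues. No such transcript was 4-fold lower in spleen than in every other tissue, and 69 were higher and 72 lower than in lung.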

How the results depend on the processing

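No paired analysis was possible because each tissue had 1 library. At a detection threshold of 10 RPKM, 4926 genes were detected in spleen and 850 in spleen alone. With a threshold of 2-fold or 8-fold, the genes higher in spleen than in every other tissue numbered 1070 or 74, those lower 74 or 0, those higher than in lung 1564 or 103 and those lower than in lung 1987 or 278. With 0.1 or 3 RPKM added in place of 1, the same counts were 623 or 154, 85 or 2, 1038 or 185, and 1806 or 347. Genes higher than in every other tissue numbered 222 under upper quartile scaling, 203 under median-of-ratios scaling and 367 in TPM. Those higher than in lung numbered 301, 287 and 542. In TPM, 38 genes were lower than in every tissue and 1137 lower than in lung. The 8 genes lower than in every tissue became 14 under upper quartile scaling, 17 under median-of-ratios scaling, 17 with RPKM summed over transcripts and 5 with the longest transcript. Leaving out a library gave 28 such genes without cerebellum, 20 without kidney, 31 without lung and 33 without heart, and 863 higher genes without lung, since fewer libraries must be passed. The median log2 ratio to the highest other tissue over the detected genes was -0.41, and was -0.72 under upper quartile scaling, -0.82 under median-of-ratios scaling and -0.72 in TPM, and that to lung moved from 0.07 to between 0.02 and 0.03. Of 640 list medians 558 stayed within 0.5 on the log2 scale, and the median of the kidney markers reversed, from -6.60 to 0.0763, without the kidney library itself. Of 6634 values of single genes, 4123 stayed within their counting interval, 2511 moved and 0 changed sign past a call. The direction of BUB1, COL14A1, FLT3, IFIT3 and STAT2 relative to the highest other tissue turned under other scaling. Under median-of-ratios scaling the members called higher than in every tissue went from 14 to 13 in the B cell list, from 4 to 3 in the germinal centre list, from 3 to 1 in the class II list, from 5 to 3 in the cell cycle list and in the lymphoid and myeloid factors, from 2 to 1 in the iron list and from 1 to 0 in the granulocyte and deaminase lists. Upper quartile scaling lowered these lists too, with 2 left in class II and 4 in the factors. With 3 RPKM added, 0 were left in the plasma cell, cytotoxic, platelet, granulocyte, class I, cell cycle, deaminase and adrenal lists, and the B cell, germinal centre, T cell, chemokine, dendritic cell, factor, class II and complement lists lost 1 or 2 each. Where no cause is given, the cause was not tested. For genes under about 1 RPKM the added 1 sets the ratio. The limit from depth lay lower, with 3 reads on a 1 kb transcript at 0.0368 (cerebellum) to 0.0621 RPKM (kidney).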

Other observations

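Some further genes were chosen after their values were seen, so they are given as a description and carry no weight for any cell type. PTPRC, the leukocyte common antigen CD45, was at 148 RPKM in spleen, 30.3 in lung, 1.73 in kidney, with 0.649 in heart and 0.185 in cerebellum. CNR2, the cannabinoid receptor of immune cells, was at 27.1 RPKM in spleen and 0.958 in lung. CD209, a lectin of dendritic cells and macrophages, was at 23.3 RPKM in spleen, 1.60 in heart and 0.314 in lung. SFRP2, a secreted modulator of Wnt signals, was at 31.3 RPKM in spleen, 4.43 in kidney and 0.734 in lung.

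The neighbours of 2 of the genes with the highest ratios were also higher in spleen than in every other tissue. SYT8, next to TNNI2 on chromosome 14, was at 38.0 RPKM in spleen and 1.12 in lung. KAZALD1, next to TLX1 on chromosome 9, was at 26.2 RPKM in spleen and 1.09 in heart. Whether neighbouring genes share reads was not tested.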
